A study of Mus musculus with 6 samples.

Results

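Loss of *Sox11* alone was examined in cultured mouse keratinocytes, the cells that make up most of the epidermis, on the 2 arrays that set Sox11 cKO (conditional knockout) RNA against wild-type RNA, out of 6 arrays in the series. The other 4 arrays set Sox4 cKO or Sox4/11 dcKO (double conditional knockout) RNA against wild type, with 2 arrays for each genotype. The question was which genes change in keratinocytes that lack *Sox11* but keep *Sox4*. Sox11 cKO cells were *Krt14-Cre;Sox11* fl/fl, Sox4 cKO cells lost *Sox4* through the same *Krt14-Cre*, dcKO cells lost both, and the wild-type cells were controls, all from newborn back skin. The floxed mice were on a mixed 129SvEx:C57BL/6 background and the Cre line was FVB/N. The Cre is driven by the *Krt14* promoter, which is active in basal epithelial cells, so that deletion reaches the cells in which that promoter works. The floxed line was described together with a *Sox12*-/- allele, and whether the cultured cells kept *Sox12* is not given in the sources used here. Cells had been grown on J2 feeder fibroblasts and then passaged without them. The labels call the 2 arrays biological replicates and do not say whether wild-type RNA was shared between arrays. The p-values treat arrays as independent. Their spread is taken from all 6 arrays and is partly shared over all probes, so it is not that of the 2 Sox11 cKO arrays alone. Cells were labelled by genotype only, and in bulk RNA fewer cells of a type and less RNA per cell cannot be told apart.

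SOX11, SOX4 and SOX12 form the SoxC group of transcription factors, which bind DNA through a high-mobility-group box and mostly activate transcription. They are best known from embryonic progenitors, where they act in neuronal and mesenchymal development and can stand in for each other. In skin, *Sox11* is active in the embryonic epidermis and is low or silent after birth. Keratinocytes of the basal layer attach to the basement membrane, divide, and then move outward while they build the cornified envelope.

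All values here are log2 ratios of knockout over wild type on the same array, or log2 levels of one channel after normalisation. A channel level can be compared between arrays for one probe, and not between probes. A probe was called when its limma adjusted p was below 0.05 and its mean log2 ratio was above 1.5 in size. Knockout RNA carried the dye Cy5 on replicate 1 and Cy3 on replicate 2, and the model holds a term for the dye. For that reason the SE and p of a gene can be small where its 2 arrays differ but differ as the dye term predicts. Each gene is represented by its brightest probe.

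The cultures carried keratinocyte RNA. All 10 keratinocyte markers, among them *Krt5*, *Krt14*, *Trp63* and *Cdh1*, were well above background in both channels of both arrays, and none of them was called. Between 40.8% and 42.9% of probes were well above background in a channel. Of 11 fibroblast markers, 9 were not well above background in any of the 4 channels, including *Col1a1*, *Pdgfra*, *Dcn*, *Lum* and *Thy1*. The exceptions were *Col1a2*, with a mean log2 ratio of 0.01, and *Fbln2*, with ratios of -0.20 and 2.74. The summed log2 level of the list was 14.5 and 14.0 in the knockout channels and 14.7 and 11.4 in the wild-type channels. Of the marker lists for other cells, 3 of 8 melanocyte, 1 of 9 immune, 2 of 5 endothelial and 2 of 4 Merkel cell and simple epithelium markers were well above background in both wild-type channels. The pair of arrays were not alike in either channel. The simple-epithelial keratin *Krt18* was at 14.60 on replicate 1 and 10.59 on replicate 2 in wild type, and at 15.75 and 11.59 in the knockout. The cornified envelope gene *Lce3c* was at 9.32 and 13.81 in wild type, and at 8.81 and 10.74 in the knockout. What part these differences have in the results below was not tested.

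*Sox11* itself was lower in Sox11 cKO cells. Its brighter probe was at 10.38 and 8.49 in the wild-type channels and at 7.07 and 5.84 in the knockout channels, and the 4 wild-type channels of the other arrays lay between 8.68 and 10.74. The knockout levels were below every wild-type level. The log2 ratios were -3.31 and -2.65, with a mean of -2.98 ± 0.47 (SD, n = 2; limma adjusted p = 0.0417). A second *Sox11* probe was well above background in both wild-type channels and in neither knockout channel, at ratios of -3.28 and -2.27, and missed the threshold (limma adjusted p = 0.0946). Where these probes lie relative to the deleted sequence is not given in the sources used here. *Sox4* stayed near wild type, with ratios of 0.06 and -0.35 (limma adjusted p = 0.968), and *Sox12* was not well above background in any channel. Among other Sox genes, *Sox9*, a factor of hair follicle stem cells, gave -0.24 and -1.32 and *Sox15* gave -0.32 and -1.37, and neither passed the test.

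Across 55681 probes, 48 (0.0862%) were called, 10 of them higher (0.018%) and 38 lower (0.0682%) in Sox11 cKO than in wild-type cells. Counting smaller changes too, 69 probes had an adjusted p below 0.05. By their brightest probe, 38 of 21368 genes with a symbol (0.178%) were called, 8 higher and 30 lower, *Sox11* among the latter. *Tns1*, *Fgfr1* and *Trpv4* were called by a dimmer probe alone and were picked out after their values were seen. Of the 38 genes, 25 moved by more than 1.5 on each of the 2 arrays. In the knockout channel 20 were well above background on both arrays and 9 on neither, while 37 were well above background in both wild-type channels. Where the dimmer genotype had no such signal, the fold change over both arrays is given as a lower bound. It sets the mean of the brighter group against the dimmest signal well above background on each array, or the probe's own where higher. Where the probe's own was higher on both arrays, as for *Sostdc1*, the bound equals the measured fold. The bound allows for background only, not for the spread between arrays, so a single array can lie below it. The dye swap balances dye bias in these means.

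**Figure D1:**
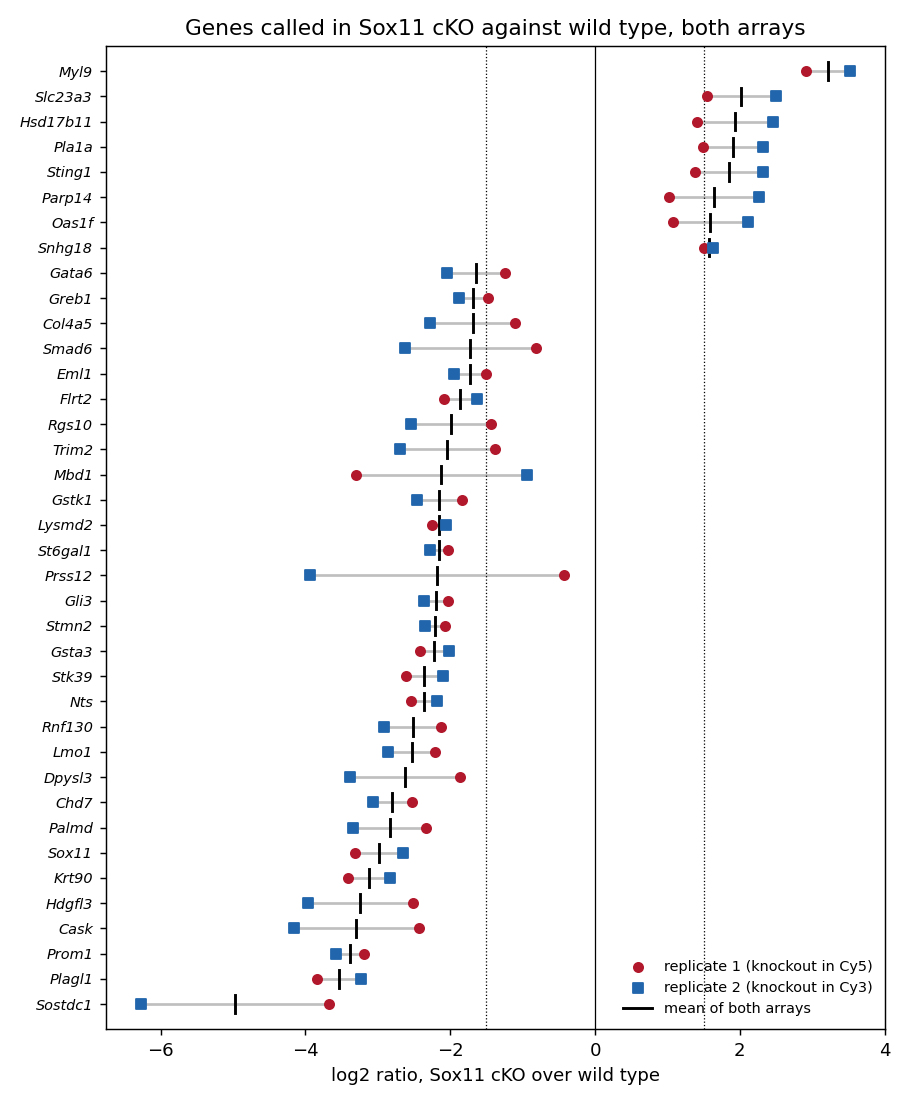
Log2 ratio of Sox11 cKO over wild type for the 38 called genes, with a circle for replicate 1, a square for replicate 2 and a black bar for their mean; dotted lines mark 1.5 in either direction. Every called gene lies on the same side of 0 on both arrays, and *Prss12* (-0.42 and -3.94) and *Sostdc1* (-3.67 and -6.27) are the widest pairs.

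Some of the called lower genes encode secreted or signalling proteins. *Sostdc1*, a secreted antagonist of BMP and Wnt signalling, was at 8.54 and 11.56 in the wild-type channels and was not well above background in the knockout channels. It gave log2 ratios of -3.67 and -6.27 and over both arrays was at least 31.4-fold lower in Sox11 cKO cells (n = 2; limma adjusted p = 0.0145). A second *Sostdc1* probe was also called, with a mean of -5.22. The wild-type channels of the other arrays held *Sostdc1* at 4.73 to 6.27, below both wild-type levels here and level with the knockout. *Smad6*, an intracellular inhibitor of BMP signalling, gave -0.82 and -2.63 (mean -1.72; limma adjusted p = 0.0328). *Gli3*, a transcription factor of the Hedgehog pathway, gave -2.04 and -2.36 and was at least 4.58-fold lower (limma adjusted p = 0.0327). *Nts*, the precursor of the peptide neurotensin, gave -2.54 and -2.18. *Rgs10*, which shortens G protein signals, gave -1.43 and -2.54, and *Stk39*, a kinase that controls ion cotransporters, gave -2.61 and -2.10. *Fgfr1*, a receptor for fibroblast growth factors, was called by 1 of 3 probes, at -1.82 and -3.40, and the probe means ran from -2.61 to -0.12. The dimmer probe of *Trpv4*, a calcium-permeable channel, gave -1.28 and -2.43.

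Several of the called lower genes encode regulators of transcription or chromatin. *Plagl1*, an imprinted zinc finger factor that restrains growth, was at 8.40 and 7.93 in the wild-type channels and not well above background in the knockout, at least 11.1-fold lower (log2 ratios -3.84 and -3.23; limma adjusted p = 0.00629). Its 4 probes did not agree: 2 were called, and their means ran from -3.54 to 0.23. *Lmo1*, a LIM-only cofactor, gave -2.20 and -2.85 (limma adjusted p = 0.00629), and *Chd7*, a chromatin remodeller, gave -2.53 and -3.07 (limma adjusted p = 0.021). *Gata6* was at least 3.12-fold lower, with ratios of -1.24 and -2.04. *Greb1*, a cofactor of steroid receptors, was called by both of its probes, with means of -1.68 and -2.64. *Mbd1*, which binds methylated CpG, rested mainly on replicate 1 (-3.31 against -0.94), and its 3 probes ran from -2.12 to 0.05.

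Some called genes encode proteins of the cell surface and matrix. *Cask*, a membrane scaffold of the MAGUK family, was at 9.88 and 10.88 in the wild-type channels and at 7.45 and 6.72 in the knockout channels. Both knockout levels were below all 6 wild-type levels, which reached down to 9.60. Its ratios were -2.44 and -4.16 (mean -3.30 ± 1.22, SD, n = 2; limma adjusted p = 0.0144), and its other 2 probes, neither of them called, had means at or just below -0.97. *Prom1*, the membrane protein CD133, gave -3.19 and -3.58 on 1 of 2 probes (limma adjusted p = 0.0385), and the other probe had a mean of -0.42. *Flrt2*, a transmembrane adhesion and guidance protein, was at 8.38 and 8.77 in wild type and at 6.29 and 7.13 in the knockout, with ratios of -2.09 and -1.64 (limma adjusted p = 0.0145). *Col4a5*, a chain of basement membrane collagen, gave -1.11 and -2.27. *St6gal1*, which adds sialic acid to glycans, was at least 4.47-fold lower by 1 of 2 probes, and the other had a mean of -0.05.

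The called lower genes also included genes of the cytoskeleton. *Krt90*, a type II keratin gene, was at 9.63 and 8.71 in the wild-type channels and at 6.22 and 5.88 in the knockout, with ratios of -3.41 and -2.83 (limma adjusted p = 0.00629). *Stmn2*, a microtubule-destabilising protein of growing axons, gave -2.08 and -2.35 (limma adjusted p = 0.0144). *Dpysl3*, which acts in growth cones, gave -1.86 and -3.38, and *Eml1*, a microtubule-associated protein, was at least 3.30-fold lower (mean -1.73; limma adjusted p = 0.0169). Each was called by 1 of 2 probes, and the other probe had a mean of -0.47 for *Dpysl3* and -0.49 for *Eml1*. Of 11 neuronal genes listed, *Stmn2* was the only one called. *Tubb3*, the neuronal beta-tubulin, gave -0.98 and -1.29 without passing (limma adjusted p = 0.107), and *Dcx* was not well above background.

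The remaining called lower genes included enzymes. The glutathione S-transferases *Gsta3* and *Gstk1*, which conjugate or reduce reactive compounds, gave -2.41 and -2.02, and -1.84 and -2.46. *Gsta3* was called by both of its probes, and as its family has close paralogs its probes may take up more than one member. The ubiquitin ligases *Rnf130* and *Trim2* gave -2.12 and -2.91, and -1.38 and -2.69. Their other probes were not called and had means of up to 0.37 for *Rnf130* and of -0.47 for *Trim2*. *Prss12*, a secreted serine protease, gave -0.42 and -3.94, so that replicate 2 alone moved by more than 1.5. Over both arrays *Hdgfl3* was at least 9.45-fold lower, with ratios of -2.52 and -3.96, *Palmd* at least 7.14-fold, with -2.33 and -3.34, and *Lysmd2* at least 4.45-fold, with -2.25 and -2.06. The log2 fold change of *Hdgfl3* was -2.21 without Sox11 cKO replicate 2 and -4.27 without replicate 1, and that of *Palmd* was -2.27 and -3.40.

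The 8 higher genes were led by *Myl9*, the regulatory light chain of myosin II in smooth muscle and non-muscle cells. *Myl9* was at 8.55 and 8.66 in the wild-type channels and at 11.47 and 12.18 in the knockout, with ratios of 2.92 and 3.52 (mean 3.22 ± 0.42, SD, n = 2; limma adjusted p = 0.0144). The knockout levels were above 3 of the 4 other wild-type channels, of which the highest reached 12.71. *Slc23a3*, a member of the ascorbate transporter family, rose from 9.09 and 9.27 to 10.63 and 11.77 (limma adjusted p = 0.0144). *Hsd17b11*, a lipid droplet enzyme, gave 1.40 and 2.46, and *Pla1a*, a phospholipase, had a mean of 1.91. Also called higher were *Sting1*, *Parp14* and *Oas1f*, which act in innate immunity.

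*Sting1*, the adaptor that relays sensing of cytosolic DNA, was at 7.66 and 5.43 in wild type and at 9.04 and 7.75 in the knockout, with ratios of 1.38 and 2.32 (limma adjusted p = 0.0328). *Parp14*, an interferon-induced ADP-ribosyltransferase, gave 1.02 and 2.27 (limma adjusted p = 0.037). *Oas1f* belongs to the family that senses double-stranded RNA and gave 1.07 and 2.11 (limma adjusted p = 0.04), although its probe may not be told apart from those of close paralogs. *Oas1a* gave 1.94 and 3.95 and missed the threshold (limma adjusted p = 0.0946). *Snhg18*, a non-coding host gene of small nucleolar RNA, was not well above background in either wild-type channel and was at least 2.96-fold higher. By its dimmer probe *Tns1*, a focal adhesion protein, gave 1.71 and 2.72, while its brighter probe had a mean of 1.07.

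**Figure D2:**
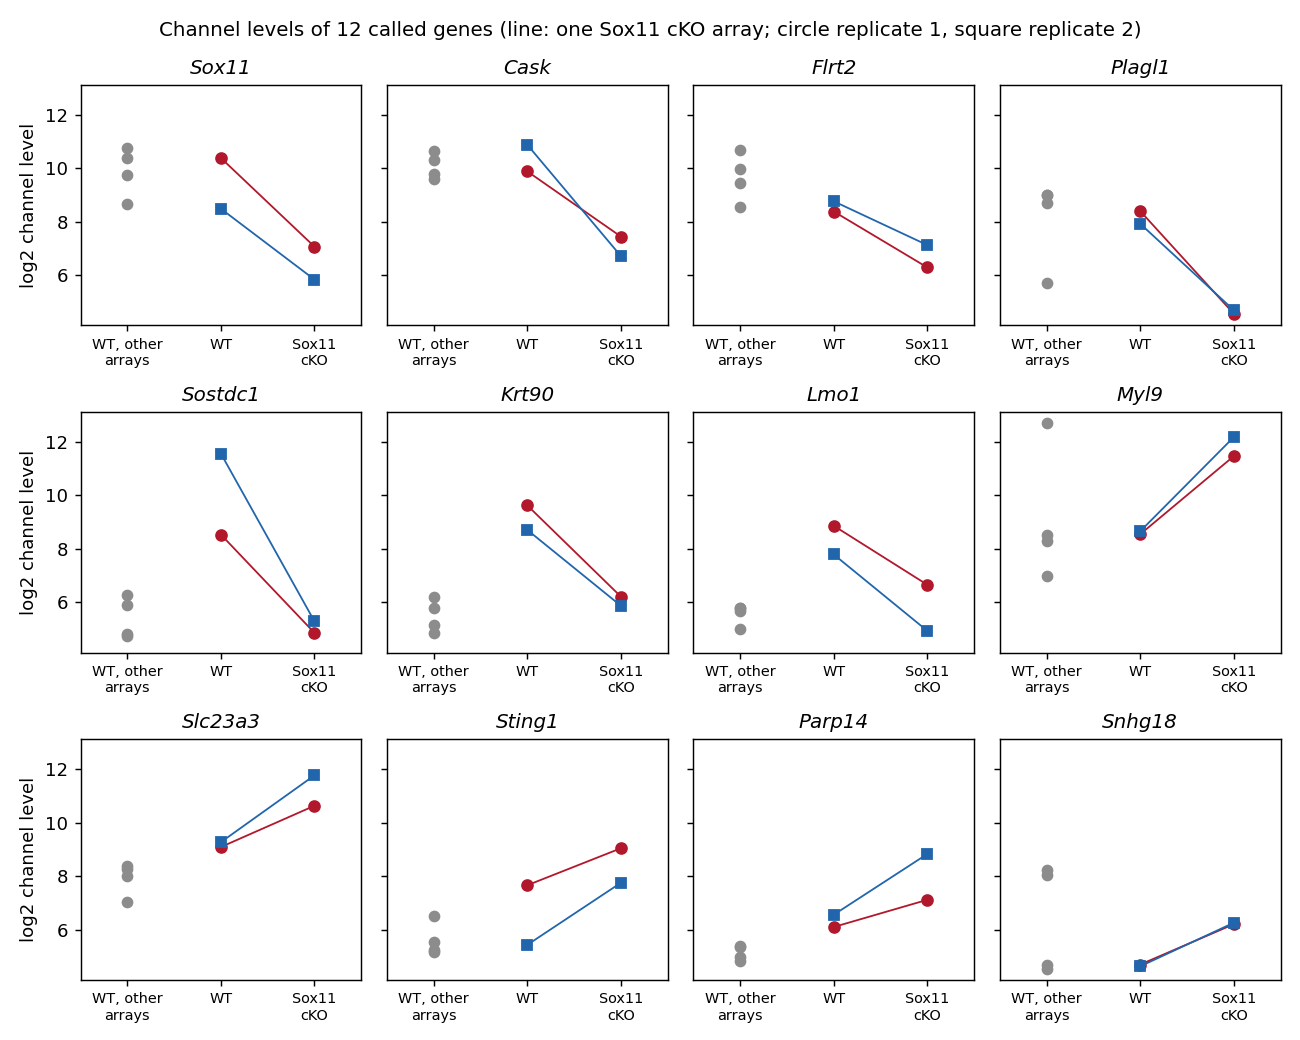
Log2 channel levels of 12 called genes: grey points are the wild-type channels of the 4 other arrays, and each line joins wild type and Sox11 cKO on one array (circle, replicate 1; square, replicate 2). For *Sox11*, *Cask*, *Flrt2* and *Plagl1* the knockout lies below all wild-type points, whereas for *Sostdc1*, *Krt90* and *Lmo1* the wild-type channels of the Sox11 cKO arrays stand above the grey points.

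The level plot raises the question of which channel departs from the rest, since a ratio moves with either. For 20 of the 38 genes, 14 lower and 6 higher, both knockout levels lay outside all 6 wild-type levels, as they did for *Sox11*, *Cask*, *Plagl1*, *Chd7*, *Gli3*, *Flrt2*, *Sting1* and *Slc23a3*. For 16 genes, 15 of them lower, the knockout mean was the nearer of the pair to the wild-type channels of the remaining arrays. *Sostdc1*, *Prom1*, *Krt90*, *Palmd*, *Lmo1*, *Nts* and *Greb1* were of this kind. The sets overlap, since *Chd7*, *Rnf130*, *Trim2* and *Eml1* belonged to both. *Chd7* had mean levels of 6.40 in the knockout and 9.20 in wild type, against a median of 7.35 in the other wild-type channels. *Krt90* was at 4.88 to 6.20 in the other wild-type channels, against 9.63 and 8.71 here. *Lmo1* was at most at 5.78 there, against 8.87 and 7.79, and *Palmd* at 4.98 to 5.53, against 7.23 and 8.48. Among the 20 genes, the wild-type levels of *Slc23a3*, *Parp14*, *Mbd1*, *Stk39* and *Rnf130* here also lay outside those of the other arrays. *Slc23a3* was at 9.09 and 9.27, against at most 8.39 there, and *Mbd1* at 11.43 and 9.01, against at least 11.47. For *Sox11*, *Cask*, *Plagl1*, *Chd7*, *Gli3*, *Flrt2* and *Sting1* the wild-type levels here overlapped those of the other arrays. For all 38 genes the ratio gives the difference between knockout and wild type on the same array. Whether it comes from the genotype or from the cultures paired on these arrays cannot be told apart, for these 16 genes or for the rest.

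SOX factors bind short A/T-rich sequences, so the promoters of the called genes were searched for AACAAAG and AACAATG on both strands. Promoters reach from 250 bases before to 50 bases after each RefSeq start on GRCm38.p6, and 26 of the 38 genes had one or more. Either motif was present in the promoters of 2 of 21 lower genes and of 0 of 5 higher genes, or in 8.82% of the 34 promoters of lower genes, against 9.36% of all 32851 promoters. The share was near the background. *Eml1* counts in it with overlapping promoters from 108410383 and from 108410386 that hold the same AACAAAG. The promoter of *Flrt2* with this motif and the first of these from *Eml1* are printed here, with the motif in capitals. Beside them is that of *Sox11*, which holds neither motif. They are, on GRCm38.p6, chr12:95691976-95692275 on the plus strand for *Flrt2*, chr12:108410383-108410682 on the plus strand for *Eml1*, where it is one of 5 promoters, and chr12:27342669-27342968 on the minus strand for *Sox11*.
Flrt2: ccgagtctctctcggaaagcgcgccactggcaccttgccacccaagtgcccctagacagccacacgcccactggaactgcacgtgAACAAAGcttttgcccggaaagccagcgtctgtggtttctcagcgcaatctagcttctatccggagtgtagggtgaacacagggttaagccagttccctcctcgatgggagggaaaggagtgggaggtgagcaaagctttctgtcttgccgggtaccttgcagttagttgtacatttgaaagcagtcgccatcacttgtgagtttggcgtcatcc
Eml1: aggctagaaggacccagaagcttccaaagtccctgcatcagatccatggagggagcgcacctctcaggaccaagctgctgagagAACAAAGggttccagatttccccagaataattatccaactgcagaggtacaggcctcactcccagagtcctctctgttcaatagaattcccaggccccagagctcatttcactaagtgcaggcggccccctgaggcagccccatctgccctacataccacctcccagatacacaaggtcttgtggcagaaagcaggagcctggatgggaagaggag
Sox11: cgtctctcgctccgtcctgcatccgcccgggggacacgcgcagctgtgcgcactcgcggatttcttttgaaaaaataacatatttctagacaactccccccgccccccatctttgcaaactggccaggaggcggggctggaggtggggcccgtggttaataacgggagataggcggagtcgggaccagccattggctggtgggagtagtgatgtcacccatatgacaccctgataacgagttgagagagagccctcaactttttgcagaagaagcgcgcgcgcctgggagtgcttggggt
Counted from the start, the motif lies at -165 in *Flrt2* and at -166 in *Eml1*. A match of letters does not show binding.

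Beyond the called genes, groups of genes were described by how many members lay on the same side of 0 on both arrays. Members that were not well above background are counted too. Over all 21368 genes, 22.3% were higher and 22.8% lower on both arrays, and the median log2 ratio was 0.00. Of 27 BMP and Wnt genes, 2 were called, *Sostdc1* and *Smad6*, both inhibitors and both lower. In this group 13 were lower and 1 higher on both arrays, with a median of -0.22. Only 18 members were well above background in the knockout or wild-type channel of both arrays, 7 of these lower and 1 higher. The ligand *Bmp7* gave -1.10 and -5.11 (limma adjusted p = 0.104), and *Id2*, a target of BMP signalling, gave -0.66 and -3.49 (limma adjusted p = 0.431). The inhibitors *Nog* and *Fst* gave -0.22 and -0.20, and -0.41 and -0.65.

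Of the 14 genes of basal keratinocytes, 7 were lower and 2 higher on both arrays, with a median of -0.29 and no call. The hemidesmosome genes *Itga6* (-0.41 and -0.60), *Itgb4* (-0.49 and -0.70), *Col17a1* (-0.26 and -1.62) and *Dst* (-0.82 and -0.31) lay below 0 on both arrays and did not pass. The 4 *Dst* probes had means from -0.56 to 0.12. Genes of keratinocyte differentiation parted by array. None of 22 was called, 7 were lower and 4 higher on both, and the median was -0.39. The late envelope genes *Lce1c*, *Lce3a* and *Lce3c* gave 0.09, 0.15 and -0.51 on replicate 1 and -4.02, -3.79 and -3.07 on replicate 2, while *Sprr2d* gave 3.61 and -0.26. Without replicate 2 the median of this group was 0.23.

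Of 22 cell cycle genes, 9 were higher and 2 lower on both arrays, with a median of 0.35 and no call. *Ccnb2*, the mitotic cyclin B2, gave 0.43 and 1.61 (limma adjusted p = 0.145) and the checkpoint kinase *Bub1* gave 0.43 and 1.12 (limma adjusted p = 0.229). *Mcm2* and *Top2a*, which act in DNA replication, pointed in opposite directions on the 2 arrays, at -0.44 and 1.78 and at -0.48 and 1.80. Of 20 STING and interferon genes, 9 were higher and 2 lower on both arrays, with a median of 0.22 and *Sting1* as the 1 call. Only 10 of them were well above background in the knockout or wild-type channel of both arrays, 4 of these higher and 0 lower. *Isg15* gave 0.64 and 0.75 (limma adjusted p = 0.435) and *Bst2* -0.09 and 2.16. The DNA sensor *Cgas*, upstream of STING, gave 0.57 and -1.92.

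Among 18 contractile genes *Myl9* was the 1 call, 7 were higher and 2 lower on both arrays, and the median was 0.15. The smooth muscle genes *Tagln* (1.87 and 0.72) and *Cnn1* (1.30 and 0.61) lay above 0 on both arrays without passing, whereas *Acta2* gave 0.02 and -0.94. Of 24 genes of the actin cytoskeleton and migration none was called, and the median was -0.05. *Evl*, which promotes actin filament growth, gave -0.79 and -2.37 (limma adjusted p = 0.0971). Of 16 polarity scaffold genes *Cask* was the 1 call. Its partners *Lin7c* and *Dlg1* gave means of -0.01 and 0.03. Of 18 lipid genes, *Hsd17b11* and *Pla1a* were called higher, and *Lpl*, which hydrolyses circulating triglycerides, passed the test at a change too small to be called (-1.18 and -1.66; limma adjusted p = 0.0272). A second *Lpl* probe had a mean of -0.29. *Scd2*, a fatty acid desaturase, gave 1.13 and 1.77 (limma adjusted p = 0.155).

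Of 17 imprinted growth genes *Plagl1* was the 1 call, 5 were higher and 8 lower on both arrays, and the median was -0.22. *Mest* was close to the threshold at -1.89 and -1.41 (limma adjusted p = 0.0519), and the growth-restraining RNA *H19* gave 1.19 and 1.47 (limma adjusted p = 0.0792). The 3 *Mest* probes had means from -1.65 to -0.32. *Igf2*, which neighbours *H19*, was not well above background in any channel. Of 13 genes of skin stem cells and the hair follicle *Prom1* was the 1 call, and *Cd34*, which marks follicle stem cells, gave -1.02 and -0.44. Of 25 genes that the study named as activated by SoxC factors, none was called in Sox11 cKO. That list came in part from these samples and is not independent of them. For keratinocytes the study kept to genes changed in dcKO only. The absence of a call was therefore set in part by the choice of genes and is no finding. *Gng2* gave 1.07 and 2.49 (limma adjusted p = 0.196), *Pxdn* -0.36 and -1.69 and *Vcan* -0.95 and -0.94.

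**Figure D3:**
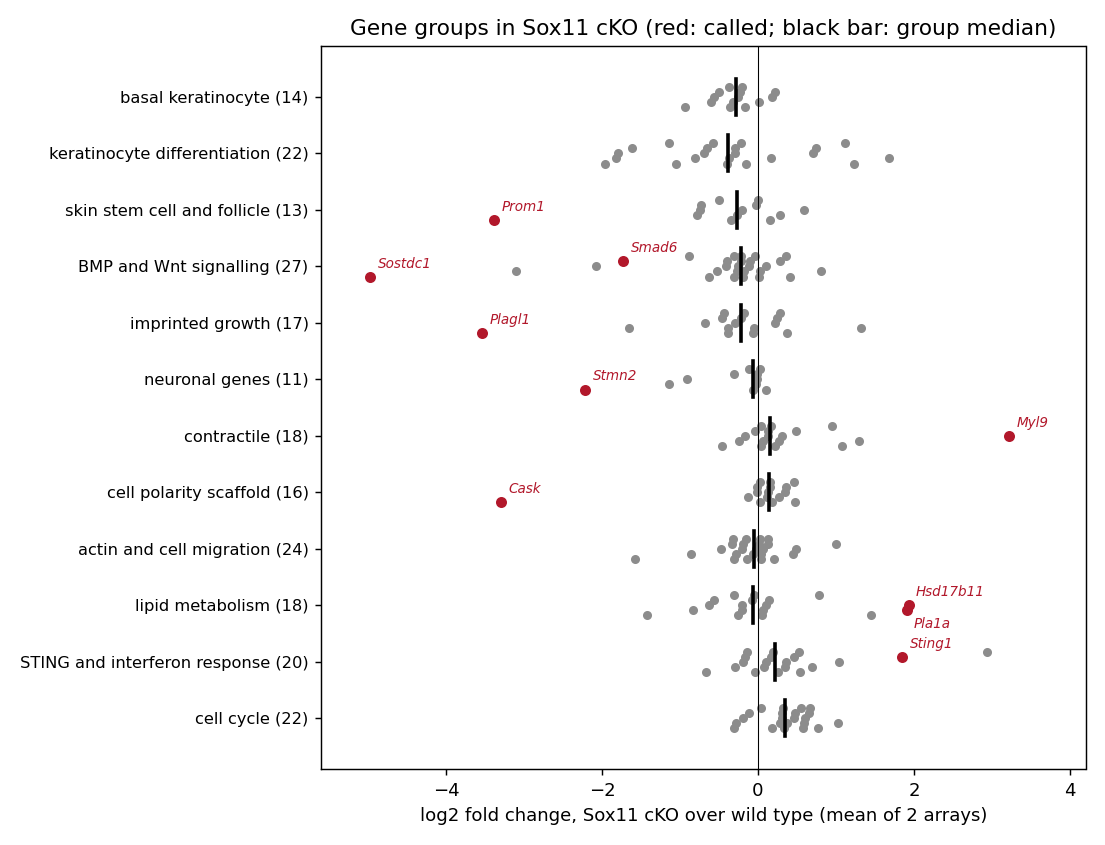
Mean log2 ratio of Sox11 cKO over wild type for the members of 12 gene groups, called genes in red and the group median as a black bar. Brackets give the number of members with a probe, whether or not well above background. Group medians lie between -0.39 and 0.35, and called genes such as *Plagl1* (-3.53), *Cask* (-3.30) and *Myl9* (3.22) lie apart from their group's median.

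The Sox11 cKO changes were then set beside those of the other genotypes, testing each difference in the same model. Since the 38 genes were chosen for a large Sox11 cKO value, counts of those that differed are set in part by that choice and are given as a description. Against Sox4 cKO, 6 probes differed by both thresholds (0.0108%), and the same number had an adjusted p below 0.05 (0.0108%). Of the 38 genes called in Sox11 cKO, 3 differed from Sox4 cKO. *Krt90* was the widest: its log2 fold change was -3.12 in Sox11 cKO and 4.67 in Sox4 cKO, a difference of -7.79 (limma adjusted p = 0.000317). *Rnf130* was at -2.52 against 1.03 (limma adjusted p = 0.0175), and *Plagl1* at -3.53 against 0.43 (limma adjusted p = 0.0175). For *Gsta3*, which was also called in Sox4 cKO at -3.08, the difference of 0.86 did not pass (limma adjusted p = 0.590). *Gstk1* and *Snhg18* were likewise called in Sox4 cKO, at -1.76 and 2.89. With *Krt90* that makes 4 of the 38 genes, against 0.159% of all genes called in Sox4 cKO, and the arrays may share wild-type RNA.

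Against dcKO, 250 probes differed by both thresholds (0.449%), 107 higher and 143 lower in Sox11 cKO, and 268 had an adjusted p below 0.05 (0.481%). With arrays centred on the median in place of loess the split became 665 higher and 162 lower. Of the 38 called genes, 22 differed from dcKO at an adjusted p below 0.05. *Cask* was at -3.30 in Sox11 cKO and 0.00 in dcKO (limma adjusted p = 0.0166 for the difference), *Myl9* at 3.22 and -0.28 (limma adjusted p = 0.0154) and *Sostdc1* at -4.97 and 0.10 (limma adjusted p = 0.0223). In wild type on the dcKO arrays *Sostdc1* was at 4.81 and 4.73. These levels were below its Sox11 cKO levels of 4.86 and 5.29, which were not well above background. A fall of *Sostdc1* in dcKO could therefore not have been seen. *Col4a5* and *Rnf130* were called in opposite directions, at -1.69 and 1.66 and at -2.52 and 1.72 (limma adjusted p = 0.00338 for both differences). *Sting1* was at 1.85 against -0.33 (limma adjusted p = 0.0313).

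Of the 38 genes 5 were also called in dcKO, against 1.39% of all genes, and the other 3 were lower in both. *Sox11* was at -2.98 and -3.43, *Gli3* at -2.20 and -1.92, and *St6gal1* at -2.16 and -2.20, and the differences did not pass (limma adjusted p = 0.869, 0.879 and 0.987). *Gata6* and *Rgs10*, at -1.64 and -1.18 and at -1.99 and -1.31, passed the adjusted p in dcKO with changes under 1.5. So did *Dpysl3* at -2.62 and -1.35, *Lysmd2* at -2.16 and -1.08, and *Snhg18* at 1.57 and 1.27. *Snhg18* was thus higher in dcKO too, besides its call in Sox4 cKO at 2.89. The comparisons may share wild-type RNA, so these values are given side by side only.

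**Figure D4:**
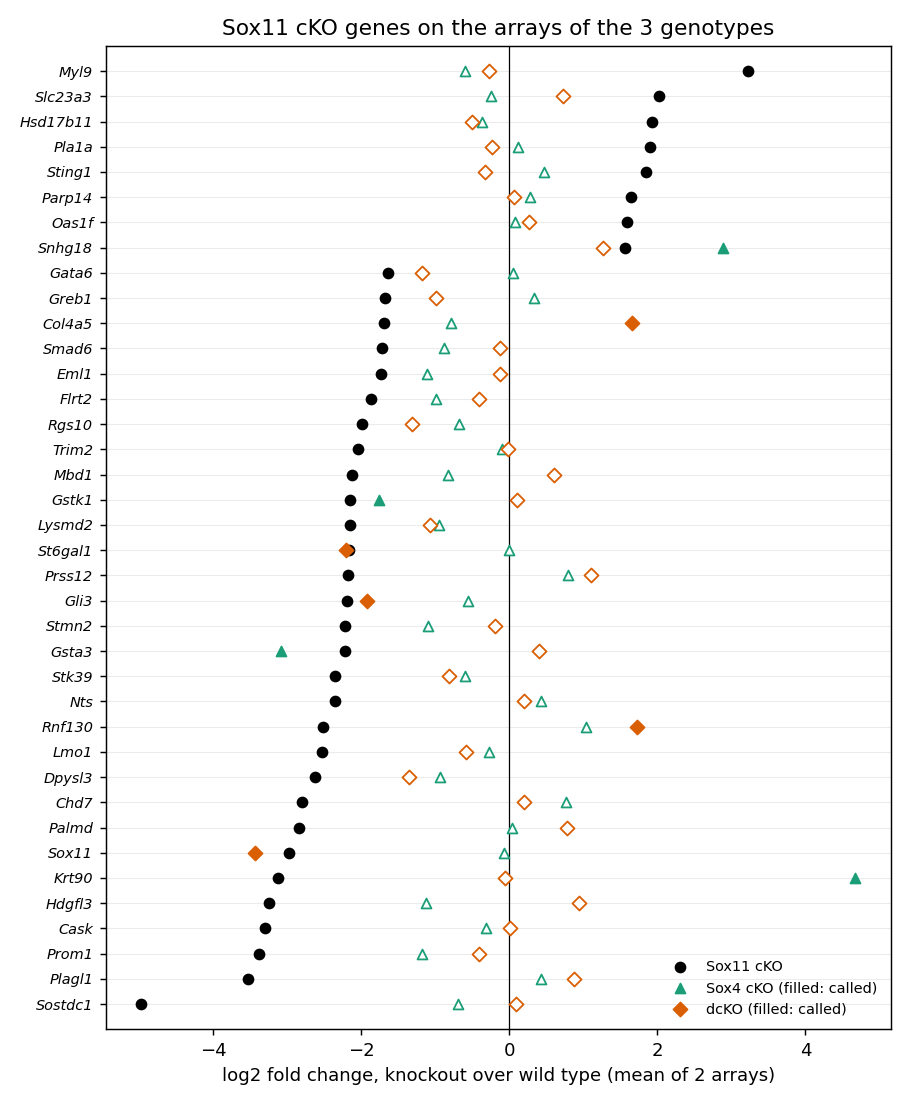
Mean log2 fold change over wild type of the 38 genes called in Sox11 cKO (black circles), with their values in Sox4 cKO (green triangles) and dcKO (orange diamonds), filled where called. The genes were chosen by the black circles, so other symbols nearer 0 are no finding; *Krt90* lies at 4.67 in Sox4 cKO, and *Rnf130* and *Col4a5* at 1.72 and 1.66 in dcKO, on the opposite side of 0.

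With a background offset of 50 or 0, or with the scanner software's own signals, no probe was called in Sox11 cKO by limma. In that order 3936, 3219 and 3653 of the 55681 probes had an unadjusted limma p below 0.05, against 3811 in the main fit. A share of 0.05 would pass with no change at all. All 38 genes kept their direction. With each array left out in turn, 25 to 38 of the genes kept their call. The count of called probes then ran from 49 to 793, the highest without Sox11 cKO replicate 1, and *Sox11* itself missed the threshold without either dcKO array (limma adjusted p = 0.0962).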

How the data were processed

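Total RNA of primary keratinocytes was hybridised to Agilent 2-colour mouse arrays, and the deposited scanner files hold one array each. Per the file headers, Agilent Feature Extraction 11.0.1.1 gave the median intensity of each spot and its local background. Its LogRatio column, a log10 ratio of Cy5 over Cy3 as deposited, enters no value here, and the scanner's processed intensities serve only as an alternative. A matrix of log2 ratios from the authors was made with limma (normexp background correction, offset of 16, loess, removal of a colour effect). Its columns correlated at 0.89 and 0.952 with knockout over wild type on the Sox11 cKO arrays, so it runs in that direction.

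Here, median signals were corrected by normexp with an offset of 16, control spots and 225 to 279 outlier spots on the Sox11 cKO arrays were left out, and arrays were normalised by loess. No spot was saturated. Replicate spots of a probe were averaged, giving 55681 probes, of which 28331 were named through RefSeq accessions (95.1% of 29786). limma 3.58.1 in R 4.3.3 was fitted to all 6 arrays, with a term for each genotype and a dye term, 2 residual and 5.37 prior degrees of freedom, and Benjamini-Hochberg adjustment over all probes. A call needed an adjusted p below 0.05 together with an absolute log2 fold change above 1.5, as in the study's methods. Channel levels came from loess and Aquantile scaling. All 6 arrays were on 1 slide and in 1 scan. The number of arrays limits the precision.

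Dye orientation followed the replicate number, so the dye term is also a replicate block. Deviations from the genotype means correlated at 0.316, 0.244 and 0.125 between same-numbered arrays. Named were *Sox4*, *Sox11*, *Sox12*, every called gene with a symbol, and up to 4 members of each gene list with the largest change among members well above background. Other members are named beside them as group examples picked after their values were seen. The genes and lists were chosen with earlier results of these data known. The fit was tested on simulated data. Alternatives are given below.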

Additional observations from a re-analysis of the deposited data

Results flagged for a closer look

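Differences between the Sox11 cKO effect and that of another genotype are given as log2 Sox11 cKO minus the other. Of 101 named genes, 3 passed limma's adjusted p against Sox4 cKO and 29 against dcKO. Over all probes, 0.0108% and 0.481% passed. Apart from the SoxC factors, named genes were chosen for a call or for the largest changes of their list in Sox11 cKO. The counts are set in part by that choice and are given as a description. Against Sox4 cKO the differences were -7.79 for *Krt90*, -3.96 for *Plagl1* and -3.55 for *Rnf130*.

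Against dcKO, genes called lower in Sox11 cKO differed by -5.07 for *Sostdc1*, -4.41 for *Plagl1*, -4.24 for *Rnf130*, -4.19 for *Hdgfl3*, -3.62 for *Palmd* and -3.35 for *Col4a5*. *Cask* differed by -3.30, *Prss12* by -3.28, *Krt90* by -3.06, *Chd7* by -3.00, *Mbd1* by -2.73, *Gsta3* by -2.62 and *Nts* by -2.55. The differences were -2.26 for *Gstk1*, -2.01 for *Stmn2*, -1.95 for *Lmo1*, -1.60 for *Eml1* and -1.45 for *Flrt2*. For some of these genes the wild-type channels of the dcKO arrays held little signal, so a fall in dcKO could hardly be seen. Examples are *Sostdc1* at 4.81 and 4.73, *Krt90* at 5.15 and 4.88 and *Palmd* at 4.98 and 5.30. *Nts* was at 4.47 and 5.23 there, and *Eml1* at 5.28 and 5.15. Genes called higher differed by 3.50 for *Myl9*, 2.44 for *Hsd17b11*, 2.18 for *Sting1* and 2.14 for *Pla1a*.

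A further set of genes was not called in Sox11 cKO. *Lgals1* differed by 7.29, *Krt18* by 5.11, *Gng2* by 4.90, *Pxdn* by 4.35, *Sox4* by 2.38, *Tead2* by 2.24 and *Camta1* by -2.49. *Sox4* is itself deleted in dcKO. The study named *Lgals1*, *Gng2*, *Pxdn* and *Camta1* for a change in dcKO, in part from these samples. Their differences were set in part by that choice.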

How the results depend on the processing

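The main counts of called probes were 48 for Sox11 cKO, 6 for its difference from Sox4 cKO and 250 for that from dcKO. In that order they were 0, 1 and 0 with an offset of 50; 0, 0 and 0 with an offset of 0, where limma gave 3219, 3207 and 4381 probes at an unadjusted p below 0.05; and 0, 0 and 0 with Feature Extraction signals, with 3653, 3634 and 6084 such probes. They were 60, 17 and 827 with median centring, 94, 55 and 492 in the authors' table, 15, 2 and 93 with only probes well above background, and 71, 19 and 304 with an intensity trend. With the dye effect subtracted first they were 32, 5 and 282. With no replicate block (the dye term left out) they were 18, 1 and 88. With only the Sox11 cKO arrays, 0 probes were called and 1696 had an unadjusted p below 0.05.

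Leaving out 1 array gave 49 to 793 called probes in Sox11 cKO, 1 to 793 for the difference from Sox4 cKO and 32 to 1530 for that from dcKO. Without Sox11 cKO replicate 1 the counts were 793, 793 and 1530, and without replicate 2 they were 181, 200 and 461. There the lone array is assumed to vary like the other genotypes. The difference from dcKO fell to 81 and 32 probes without dcKO replicate 1 or 2, and that from Sox4 cKO to 2 and 1 without Sox4 cKO replicate 1 or 2 and rose to 10 without either dcKO array.

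The *Sox11* probe had a log2 fold change of -2.57 with an offset of 50 (adjusted p = 0.380), -3.27 with an offset of 0 (0.330) and -3.58 with Feature Extraction signals (0.649). At -2.98 its adjusted p was 0.0978 with no replicate block, 0.0821 with the dye effect subtracted first, 0.255 with only the Sox11 cKO arrays, 0.0855 with only probes well above background and 0.0962 without a dcKO array. Leaving out arrays gave -3.94 to -2.02.

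The 38 genes kept their direction under every alternative in which they were measured. All 38 stayed called under median centring, the authors' table and the trend, 24 with the dye effect subtracted first, 14 without the dye term and 13 of 36 among probes well above background. Values that reversed belonged to uncalled genes. *Col1a2* was at -0.0045 with an offset of 50, -0.051 with Feature Extraction signals, and -0.012 with median centring. *Cd3e* was at 0.0053, 0.034 and 0.016 under those 3 settings, and *Kdr* at 0.0055 with Feature Extraction signals. Leaving out 1 array each gave ranges of -0.19 to 0.0329 for *Sox12*, -0.70 to 0.48 for *Tead2*, -0.25 to 0.11 for *Pecam1*, -0.49 to 0.51 for *Col1a2*, -0.995 to 3.01 for *Lgals1*, -0.0996 to 1.44 for *Mcm2*, -0.0944 to 1.41 for *Top2a*, -0.101 to 1.03 for *Dlg5*, -0.33 to 0.85 for *Mlana*, -0.22 to 0.17 for *Kdr*, -0.15 to 0.15 for *Cd3e*, -3.84 to 0.20 for *Lce3a*, -2.22 to 0.0848 for *Perp*, -2.31 to 0.091 for *Mitf* and -2.25 to 0.56 for *Slco3a1*. The median of the genes activated by SoxC factors was 0.05 without replicate 1. The cause of these changes was not tested. Mean spot signals are not used here, so that alternative was not run.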
